A study of Mus musculus with 4 samples.

Results

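The genes described here encode the nuclear subunits of the mitochondrial respiratory chain and ATP synthase. They were chosen by symbol: every gene starting with Nduf, Uqcr, Sdh followed by a, b, c or d, Cox4 to Cox8, or Atp5, without the Ndufaf and Sdhaf assembly factors. The rule found 82 genes among the 18194 genes with a probe set of their own, and no measured value entered it. Complex I had 34 of them, complex II 4, complex III 8, complex IV 19 and complex V 17, with Ndufa4 and Ndufa4l2 counted in complex IV. The 13 subunits encoded by mitochondrial DNA were not analysed here, nor were the matching genes Cox7b, Ndufa11, Ndufb4b, Ndufb4c and Ndufs6.

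Transcripts were measured on 4 Affymetrix Mouse 430_2 arrays, each made from the pooled RNA of several mice. WT Ly6Chigh and WT Ly6Clow were splenic monocytes of C57BL/6 mice that the source labels call control littermates. KO Ly6Chigh and KO Ly6Clow came from miR-146a-/- mice of strain B6(FVB)-Mir146tm1.1Bal/J, which lack the microRNA in every cell. Cells carrying CD11b were selected on beads and then sorted by their Ly6C staining, to over 97% purity per the labels. The sources used here give neither age nor sex. Lysis of red cells used RBC and ACT buffers, and the wording leaves unclear whether each genotype had its own buffer. If it had, buffer and genotype cannot be told apart. Strain names also differ with the genotype.

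The chain sits in the inner mitochondrial membrane. Complexes I and II pass electrons from NADH and succinate to ubiquinone, complex III hands them to cytochrome c, and complex IV to oxygen. The protons pumped on the way drive complex V, the ATP synthase. Classical monocytes are Ly6Chigh and enter inflamed tissue, whereas Ly6Clow monocytes patrol the vessel wall. miR-146a represses Traf6 and Irak1 downstream of Toll-like receptors. Its mature sequence is shown because it is what the KO mice lack, with the seed, bases 2 to 8, in capitals (RefSeq, GRCm38.p6, chr11:43374435-43374456, minus strand).
mmu-miR-146a-5p: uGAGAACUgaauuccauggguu

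Values are the authors' linear signals, scaled to the same trimmed mean on every array. A gene is called Present, Marginal or Absent on each array, and a gene counts as measured in a comparison when it was Present on either array. Of all probe sets, 46.8% to 48.6% were Present. Markers of the sorted subsets ran with the labels. The 4 Ly6Chigh marker genes on the array summed to 14106.2 and 13908.2 on the Ly6Chigh arrays against 1196.3 and 938.1 on the Ly6Clow arrays, and the 10 Ly6Clow markers to 11205.9 and 9445.2 against 42640.5 and 39954.1. All 6 shared monocyte markers were Present on all 4 arrays. Each group had 1 array, so differences between arrays carry no error and no p-value. A fixed size stands in for a test: a ratio of 1.5-fold or more, with the gene Present on the brighter array at a signal of at least 100. Below, signals are listed in the order WT Ly6Chigh, KO Ly6Chigh, WT Ly6Clow, KO Ly6Clow, and log2 values are ratios of signals.

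Of the 82 genes, 73 were Present on all 4 arrays, 4 on some (Cox4i2, Cox6b2, Cox8c and Ndufb4) and 5 on none (Cox6a2, Cox7a1, Cox7b2, Cox8b and Ndufa4l2). The 5 Absent genes include the isoforms known from heart and skeletal muscle, Cox6a2, Cox7a1 and Cox8b. Their signals had upper values of 29.4, 12.6 and 3.9, next to Absent probe sets, whose 95th percentiles ran from 24.6 to 29.9. In the Cox4i, Cox6a, Cox6b, Cox7a and Cox8 families a broadly used form was Present on all arrays. Cox4i1 gave 5156.3, 4228.4, 3726.7 and 3516.5, while Cox4i2, the form known from lung and from low oxygen, gave 17.1, 19.2, 24.7 and 22.5. Levels of different genes cannot be compared on this array, so these values say which forms were detected and not their proportions.

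In both genotypes the respiratory chain genes had lower signals in Ly6Clow than in Ly6Chigh monocytes. In WT, 70 of 77 measured genes had a ratio below 1, the median log2 ratio was -0.42, and 24 passed the 1.5-fold rule as lower against 1 as higher. Over all 10535 genes measured, 10.7% passed as lower and 8.93% as higher, and the median was 0.01. In KO, 68 of 77 were below 1, the median was -0.32, and 18 passed as lower and 1 as higher, against 10.5% and 8.29% of 10410 genes and a median of -0.01. At 2-fold, 1 gene was lower (Ndufb1) and 1 higher (Cox8c) in WT, and Ndufb1 and Atp5md were the 2 lower genes in KO. Over all genes, 4.99% were lower and 3.65% higher at that size in WT, and 5.09% lower and 3.69% higher in KO, so the share of respiratory chain genes past 2-fold was below that of all genes. The WT and KO comparisons use different arrays, and 15 genes passed as lower in both, against 8.52% of the 9846 genes measured in both, and 0 as higher in both, against 6.37%.

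**Figure D1:**
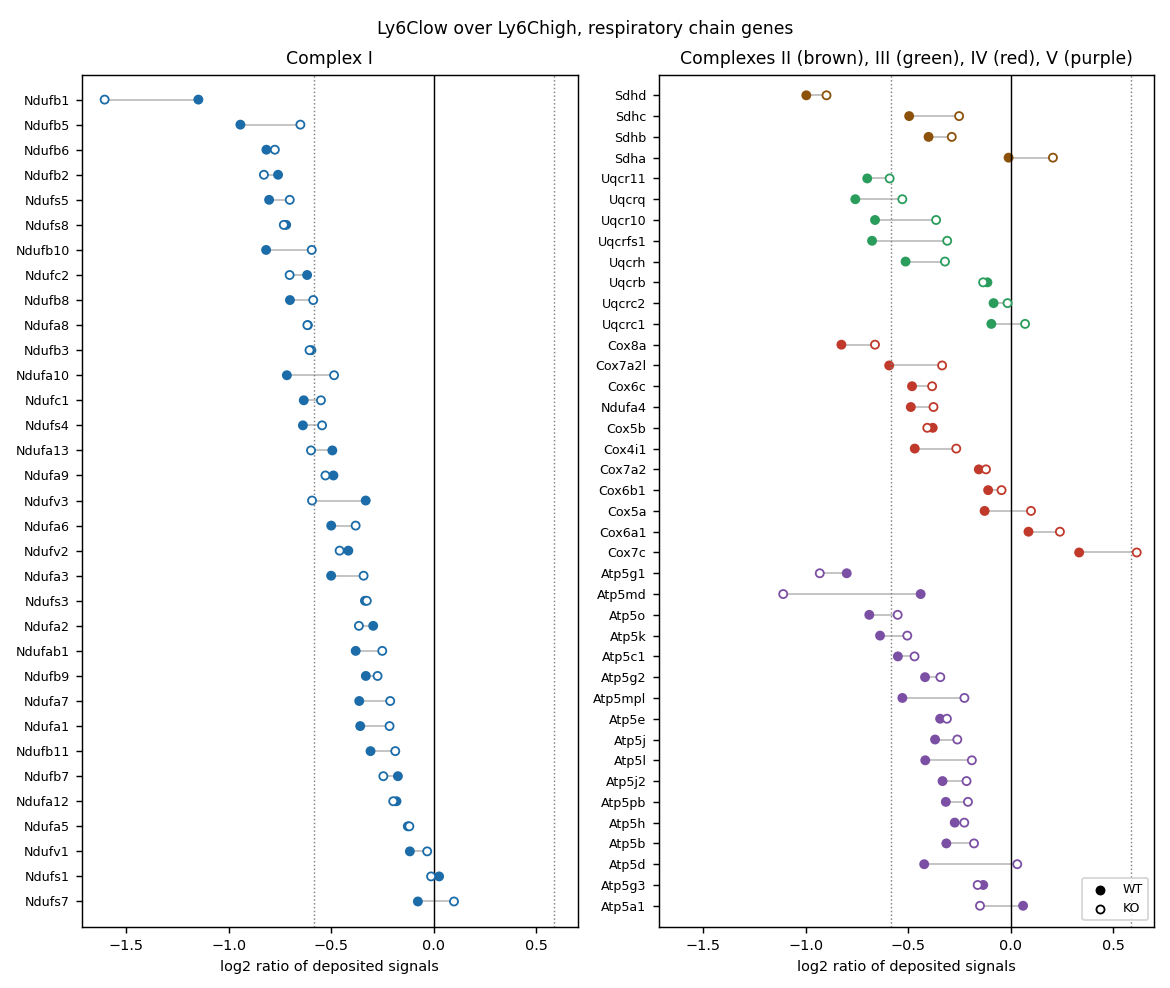
Log2 ratio of Ly6Clow over Ly6Chigh signal (horizontal axis) for each respiratory chain gene Present on all 4 arrays, 1 row per gene, with filled points for WT, open points for KO and dotted lines at 1.5-fold. Nearly all points lie left of 0, Ndufb1 lies farthest left, and Cox6a1 and Cox7c have both points right of 0.

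Ndufb1, an accessory subunit in the membrane arm of complex I, had the largest ratio in both genotypes among genes Present on all 4 arrays. Its signals were 180.9, 225.5, 81.6 and 74.1, log2 -1.15 in WT and -1.61 in KO. Both Ly6Clow arrays were below either Ly6Chigh array. The authors' deposited table also called Ndufb1 lower in Ly6Clow, with signed folds of -2.46 in WT and -2.30 in KO. For KO over WT it called no change, with signed folds of -1.07 in Ly6Chigh and 1.15 in Ly6Clow. Both are opposite in sign to the log2 ratios of the signals, 0.32 and -0.14. Sdhd, a membrane anchor of complex II, gave 1139.2, 1059.7, 570.7 and 568.4, log2 -0.997 in WT and -0.899 in KO. The KO and WT arrays of a subset were nearly level for this gene, so the split ran between subsets. Atp5g1, a gene for the c subunit of ATP synthase, gave 778.0, 689.1, 446.8 and 361.3, log2 -0.80 and -0.93.

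Complex I held 11 of the 15 genes lower in both genotypes, and 7 of these are Ndufb genes, whose products lie in the outer part of the membrane arm. With median centring 9 genes stayed lower in both, where 7.65% of all genes were lower in both. Of the 9, 6 were of complex I and 4 of these were Ndufb. Ndufb5 gave 2099.7, 1685.4, 1091.6 and 1073.2. Ndufb6 gave 1854.8, 1568.5, 1052.9 and 916.2. Ndufb2 gave 1069.2, 898.8, 631.3 and 505.9. In each of the 3 the WT Ly6Chigh array was highest and the KO Ly6Clow array lowest. Ndufb10 gave 1519.1, 1231.7, 861.5 and 815.0, Ndufb8 gave 2159.0, 1718.8, 1327.1 and 1143.0, and Ndufb3 gave 1658.3, 1353.6, 1096.0 and 888.9. The same order of the 4 arrays held for these. Ndufb3 was just inside the rule (log2 -0.60 and -0.61), as was Ndufb8 in KO at -0.59. Of the 4 Ndufb genes outside it, Ndufb7, Ndufb9 and Ndufb11 ran from -0.33 to -0.18, and Ndufb4 was dim, at or under 19.5. Ndufb4 had 1 probe set of its own, at the level of Absent probe sets, so its signals may not report the level of the transcript. It is counted in the Ndufb medians below. Another Ndufb11 probe set, Present on all arrays, gave -0.63 in WT, past 1.5-fold, and -0.47 in KO, and a further one -0.34 and -0.14. Another Ndufb9 probe set gave -0.50 and -0.37. The Ndufb group had medians of -0.70 in WT and -0.60 in KO, against -0.42 and -0.38 for the other 23 complex I genes. This grouping was made after the values were seen and has no test.

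The other complex I genes lower in both genotypes were Ndufs5, Ndufs8, Ndufa8 and Ndufc2. Ndufs5 and Ndufa8 encode accessory subunits on the intermembrane space side. Ndufs5 gave 948.4, 828.1, 543.3 and 508.7 and Ndufa8 gave 1339.3, 1135.2, 874.6 and 740.1. Ndufc2, an accessory subunit of the membrane arm, gave 2713.5, 2420.6, 1767.5 and 1486.3. Ndufs8 is an iron-sulphur core subunit on the electron path and gave 2603.7, 2270.5, 1580.2 and 1366.9. Of the 6 nuclear core genes analysed, Ndufs1, Ndufs3, Ndufs7, Ndufs8, Ndufv1 and Ndufv2, it alone passed the rule, in both genotypes, against 8.52% of all genes. A second Ndufv2 probe set, Present on all arrays, gave -0.70 in WT, past 1.5-fold, and 0.15 in KO. A further Ndufv2 probe set gave -0.35 and -0.37. Ndufs1, the largest core subunit, gave 693.0, 646.0, 705.2 and 639.8, log2 0.03 in WT and -0.01 in KO, and Ndufv1, which binds NADH, was at -0.12 and -0.03. The 6 core genes had medians of -0.23 in WT and -0.18 in KO, and the 28 accessory genes -0.50 and -0.54. Core and accessory genes were compared as a description of these arrays only.

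Some complex I genes passed in 1 genotype. Ndufa10 gave 1418.5, 1167.4, 862.9 and 833.0, Ndufc1 gave 1824.9, 1399.8, 1175.4 and 955.4, and Ndufs4 gave 787.6, 637.9, 505.8 and 437.1. These 3 passed in WT, with KO ratios of -0.55 to -0.49. Ndufs4 is an accessory subunit whose loss in mice causes an encephalopathy, and its dimmer probe sets did not all give the same directions. Ndufa13 gave 3020.1, 2919.7, 2142.3 and 1927.1 and Ndufv3 gave 1218.3, 1142.7, 967.4 and 756.9. These passed in KO, with WT ratios of -0.50 and -0.33. The difference between genotypes was not tested for any of them, since it has no replicate.

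In complex II the 4 subunits differed. Sdhd passed in both genotypes, as above. Sdha, which carries the flavin that takes electrons from succinate, gave 1238.6, 1203.3, 1229.4 and 1387.5, log2 -0.01 in WT and 0.21 in KO. Sdhb, the iron-sulphur subunit, was at -0.40 and -0.29, and the second anchor Sdhc at -0.50 and -0.25. A second Sdha probe set gave 976.6, 946.8, 980.3 and 934.1, log2 0.01 and -0.02, so the KO ratio above 1 was seen in 1 of the 2 bright probe sets. Thus 3 of the 4 genes were below 1 in both genotypes, and Sdha was level in WT.

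In complex III, 4 of 8 genes passed as lower in WT and 1, Uqcr11, in KO too, where the shares of all genes were 10.7% and 10.5%. Uqcr11, a small subunit, gave 1172.9, 875.5, 722.0 and 581.3. Uqcrfs1 encodes the Rieske iron-sulphur protein and gave 1868.6, 1552.3, 1169.1 and 1252.1. Uqcr10 gave 890.9, 711.3, 563.0 and 552.6. For both of these the log2 ratio was farther from 0 in WT (-0.68 and -0.66) than in KO (-0.31 and -0.36), and the WT Ly6Chigh array was the highest. A pair of dimmer Uqcr10 probe sets, Present on all arrays, gave -0.32 and -0.14 in WT and 0.08 and 0.34 in KO, so the KO direction of this gene differed between probe sets. Uqcrq, another small subunit, gave 1329.8, 1422.3, 786.2 and 985.8, and its other, dim probe sets did not all give the same directions. The core proteins Uqcrc1 and Uqcrc2 were nearly level: Uqcrc1 gave 989.4, 1026.8, 926.4 and 1077.6, and Uqcrc2 was at -0.08 and -0.02.

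Complex IV was mixed, and 2 of 14 measured genes passed as lower in WT and 1 in KO, about the 10.7% and 10.5% of all genes. Cox8a, the broadly used form of the smallest subunit, gave 2228.2, 1798.5, 1256.9 and 1136.4 and passed in both. Cox7a2l, which takes part in joining complexes III and IV into supercomplexes, gave 3610.9, 2736.7, 2393.8 and 2169.6 and passed in WT. Ndufa4, once assigned to complex I, gave 2056.4, 1571.5, 1466.7 and 1210.1, while its paralog Ndufa4l2 was Absent at 15.7 to 20.5. Cox7a2 gave 3359.6, 2768.8, 3015.2 and 2546.0 and Cox6b1 gave 5781.0, 4874.0, 5354.8 and 4724.0. In these probe sets the KO and WT arrays were farther apart than the subsets. Second, dimmer probe sets had larger subset ratios, -0.42 and -0.28 for Cox7a2 and -0.22 and -0.30 for Cox6b1. Cox6a1 gave 5937.8, 4935.5, 6303.6 and 5826.3, higher in Ly6Clow in both genotypes, but a second probe set gave 2964.0, 2415.0, 2559.7 and 2425.5, lower in Ly6Clow in WT and level in KO. Quantile normalization also turned its WT ratio from 0.09 to -0.03.

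Cox7c was the 1 gene Present on all arrays with a ratio above 1 in all 4 comparisons. This small complex IV subunit gave 159.7, 221.7, 201.2 and 339.3. KO was above WT in both subsets (log2 0.47 and 0.75), and Ly6Clow was above Ly6Chigh in both genotypes (0.33 and 0.61). It was highest in KO Ly6Clow, the array on which 61 of the 73 genes Present on all arrays were lowest. A second, dimmer probe set ran the same way, with 46.5, 62.8, 68.1 and 144.1. Cox7c passed the 1.5-fold rule in KO over WT in Ly6Clow and in the subset comparison in KO, with 0.687% and 8.29% of all genes passing as higher there.

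The forms known from testis were dim. Cox8c gave 58.5, 74.4, 119.7 and 83.4 and was Present on 3 arrays, and its WT ratio of 1.03 was the 1 gene above 2-fold. Cox6b2 gave 62.5, 65.3, 6.5 and 14.8, Present on the 2 Ly6Chigh arrays at a signal under the minimum of 100, and no fold is given. Cox7b2 was Absent, from 0.8 to 6.2.

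In complex V, 3 of 17 genes passed as lower in WT and 2 in KO, against 10.7% and 10.5% of all genes. The 3 nuclear genes for the c subunit, whose mature proteins are the same, differed in their ratios. Atp5g1 passed in both genotypes, as above. Atp5g2 gave 1674.7, 1469.3, 1253.3 and 1157.9, log2 -0.42 and -0.34. Atp5g3 gave 3763.3, 3432.5, 3428.4 and 3068.7, log2 -0.13 and -0.16. The size of the subset ratio thus ran from Atp5g1 through Atp5g2 to Atp5g3 in both genotypes, from separate arrays. Atp5o, a subunit of the stator stalk, gave 2160.5, 1612.1, 1339.2 and 1099.9, and Atp5k, in the membrane part, gave 2585.5, 2082.4, 1661.9 and 1467.6. Both passed in WT and were at -0.55 and -0.50 in KO. Other probe sets of these genes had lower KO ratios, from -0.59 to -0.58 for Atp5k and -0.91 for Atp5o. Of the catalytic head, Atp5b was at -0.31 in WT and -0.18 in KO. Atp5a1 was at 0.06 and -0.15, and an equally bright Atp5a1 probe set at -0.19 and -0.10.

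Atp5md encodes a small membrane subunit of ATP synthase and gave 1223.6, 1594.1, 902.2 and 738.7. KO was above WT in Ly6Chigh (log2 0.38) and below it in Ly6Clow (-0.29), and the subset ratio was -0.44 in WT and -1.11 in KO. The authors' deposited table called no change for Atp5md in either KO comparison or in the KO subset comparison, and gave -1.15 as its signed fold in Ly6Chigh, opposite in sign to the ratio of the signals.

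**Figure D2:**
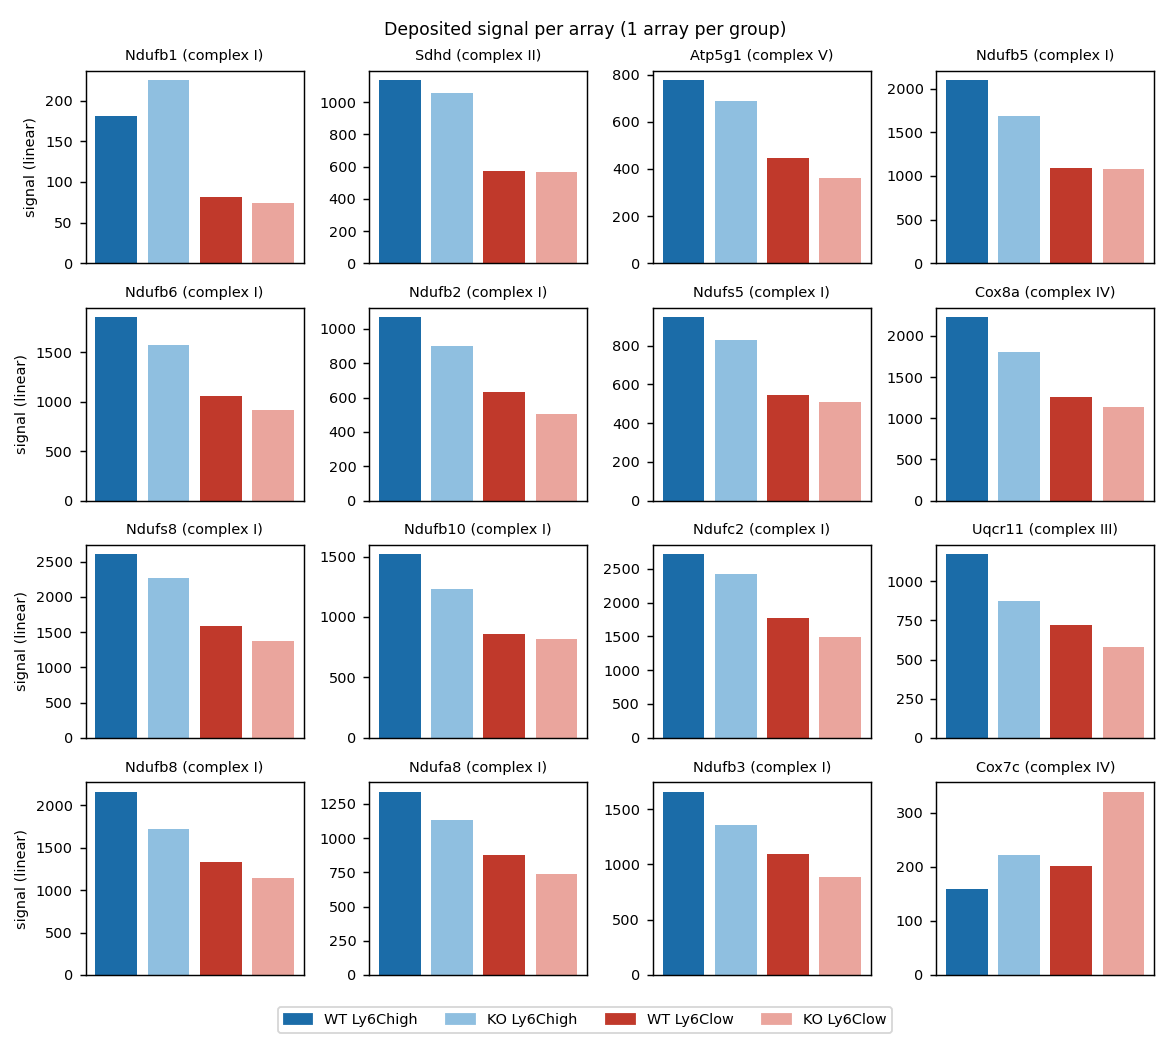
Deposited linear signal (vertical axis, starting at 0) on each of the 4 arrays for the 15 genes lower past 1.5-fold in Ly6Clow in both genotypes, with Cox7c beside them. Bars are single arrays without error. The Ly6Clow bars are the lower ones in all 15 panels, and in Cox7c the KO Ly6Clow bar is highest at 339.3.

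The promoters of Sdhd and Ndufs5, both among the 15 genes lower in both genotypes, and of Uqcrc1, which was nearly level, were set side by side for the motif of NRF1, a transcription factor known to bind many respiratory chain promoters. Each runs from 250 bases before to 50 after the gene start in RefSeq GRCm38.p6, written along the gene, and capitals mark a match to its motif, GCGCA, any base, then GCGC, on either strand. Sdhd is at chr9:50603800-50604099 (minus strand), Ndufs5 at chr4:123718137-123718436 (minus) and Uqcrc1 at chr9:108936398-108936697 (plus).
Sdhd: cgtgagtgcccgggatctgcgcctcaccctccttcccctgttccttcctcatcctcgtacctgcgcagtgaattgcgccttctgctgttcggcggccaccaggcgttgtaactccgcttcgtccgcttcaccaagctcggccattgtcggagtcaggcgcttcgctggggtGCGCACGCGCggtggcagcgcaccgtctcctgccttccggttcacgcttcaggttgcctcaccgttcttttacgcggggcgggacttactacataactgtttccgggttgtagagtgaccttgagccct
Ndufs5: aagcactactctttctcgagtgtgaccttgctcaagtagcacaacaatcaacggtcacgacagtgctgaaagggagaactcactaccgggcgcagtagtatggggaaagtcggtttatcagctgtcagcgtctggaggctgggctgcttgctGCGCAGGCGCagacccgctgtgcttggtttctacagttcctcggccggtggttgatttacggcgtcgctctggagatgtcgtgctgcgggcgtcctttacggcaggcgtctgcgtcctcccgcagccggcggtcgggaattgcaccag
Uqcrc1: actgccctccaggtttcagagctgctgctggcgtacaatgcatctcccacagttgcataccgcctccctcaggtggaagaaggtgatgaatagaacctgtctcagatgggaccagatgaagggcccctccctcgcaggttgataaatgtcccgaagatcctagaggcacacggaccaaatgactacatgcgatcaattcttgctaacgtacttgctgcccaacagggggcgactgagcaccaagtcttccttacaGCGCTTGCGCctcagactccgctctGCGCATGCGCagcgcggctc
Sdhd and Ndufs5 hold the motif before the start and Uqcrc1 holds it after the start, at 2 places. Other genes did not all follow this split. Cox6a1, with a mean subset log2 ratio of 0.16, held it before the start, and Atp5o, at -0.62, held it after the start. Whether the place of the motif goes with the subset ratio was not tested. A promoter was at hand for 67 of the 82 genes, and 15 of these (22.4%) held the motif, against 11.7% of 9049 genes measured on the arrays and 5.19% of 27025 genes. Median GC content was 59.0% for the respiratory chain promoters and 61.7% for the measured genes. Of the 15 genes lower in both genotypes 3 held it, and of the other genes Present on all arrays 11 of 47 (23.4%). A match to the YY1 motif AAGATGGC was found on either strand in 9 of the 67 (13.4%), against 5.45% of measured genes, and to the ETS motif CCGGAAGT in 5 (7.46%), against 9.38%. These are letter matches and not measured sites.

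In bulk RNA, fewer cells of a type and less RNA per cell cannot be told apart. Summed signals of some markers of other cells differed between the subsets. Of 5 markers of conventional dendritic cells on the array, 3 were Present on each Ly6Chigh array and 1 on each Ly6Clow array, with summed signals of 811.6 and 964.5 against 107.5 and 134.7, and Xcr1 was Absent on all. Of 9 neutrophil markers 5 were Present on any array, and their sums were 3763.6, 2417.8, 1943.7 and 1551.9, an order of arrays that 49 of the 73 respiratory chain genes and 1170 of 8590 genes Present on all arrays also had, while Ngp, Camp, Ltf and Elane were Absent on all. B cell markers (3 of 6 Present on any array) summed to 323.4, 208.9, 785.4 and 453.6, with Pax5, Ebf1 and Blk Absent, and platelet markers (5 of 7) to 358.0, 432.2, 528.0 and 838.0. Plasmacytoid dendritic cell markers (3 of 5) summed to 1353.9, 1229.2, 879.2 and 738.3, with Siglech and Ccr9 Absent. These sums had the same order of arrays as the neutrophil sums, as did those of the Ly6Chigh monocyte markers and of mitochondrial ribosomal proteins. Single markers did not all follow the sums of their lists. The 3 plasmacytoid markers measured had Ly6Clow over Ly6Chigh log2 ratios from -2.18 to 2.56 in WT and from -2.29 to 1.22 in KO. In KO over WT, 2 of 5 measured neutrophil markers were above 0 in Ly6Chigh and 2 of 4 in Ly6Clow. The 3 prime to 5 prime signal ratio of actin was 1.20, 1.28, 1.42 and 1.23, and that of Gapdh 0.894, 0.905, 1.12 and 0.950. Their part in the results was not tested.

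With miR-146a absent, the respiratory chain genes were slightly lower in both subsets. In Ly6Chigh, 67 of 77 genes were below 1 in KO over WT, with a median log2 ratio of -0.24, and 0 passed 1.5-fold either way. A dimmer Ndufv2 probe set, Present on all arrays, gave -0.76 there, while the other Ndufv2 probe sets gave -0.22 and -0.18. Over all 10402 genes, 51.7% were below 1, the median was -0.01, and 1.12% passed as lower and 1.39% as higher. In Ly6Clow, 66 of 76 were below 1 with a median of -0.16, 0 passed as lower and Cox7c passed as higher, against 54.6% of 10191 genes below 1, a median of -0.03, and 0.589% passing as lower. The subsets use separate arrays, and 61 of 76 genes (80.3%) were below 1 in both. The share was 33.3% of all 9494 genes measured in both and 53.6% of 1570 genes with a mean signal of at least 1000. The KO over WT ratios are small, with medians of 1.18-fold and 1.12-fold lower. At 2-fold, 0 respiratory chain genes passed in either subset, against 0.163% of all genes higher and 0.106% lower in Ly6Chigh and 0.128% and 0.0687% in Ly6Clow. At 1.5-fold, 0 passed the same way in both subsets, against 0.126% higher and 0.158% lower.

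**Figure D3:**
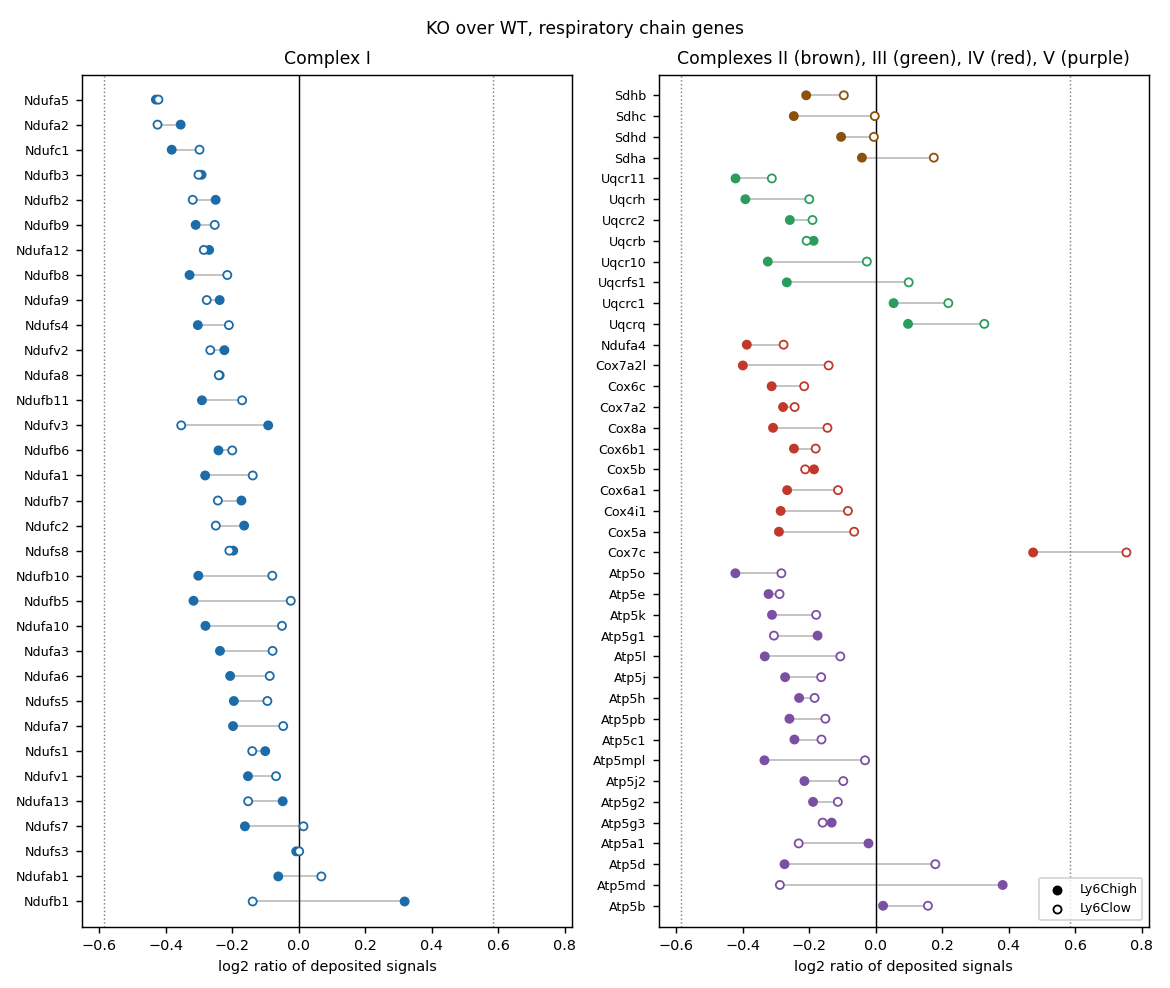
Log2 ratio of KO over WT signal (horizontal axis) for each respiratory chain gene Present on all 4 arrays, 1 row per gene, with filled points for Ly6Chigh, open points for Ly6Clow and dotted lines at 1.5-fold. Most pairs lie between 0 and the left dotted line, and Cox7c has both points to the right.

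Bright genes as a whole leaned the same way. Among 1570 genes with a mean signal of at least 1000, 69.8% were below 1 in Ly6Chigh (median -0.10) and 68.0% in Ly6Clow (median -0.06). The 58 respiratory chain genes in that range had 54 and 51 below 1 and medians of -0.26 and -0.17. Below 1 in both subsets were 50 of these 58 (86.2%), against 53.6% of the 1570. In the subset comparisons the bright genes had medians of 0.03 in WT and 0.05 in KO, against -0.42 and -0.32 for the 58. After quantile normalization the KO over WT medians of the respiratory chain were -0.16 in Ly6Chigh and -0.12 in Ly6Clow, and those of bright genes -0.02 and -0.01. The part of signal level in the KO over WT values was not tested beyond these medians.

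**Figure D4:**
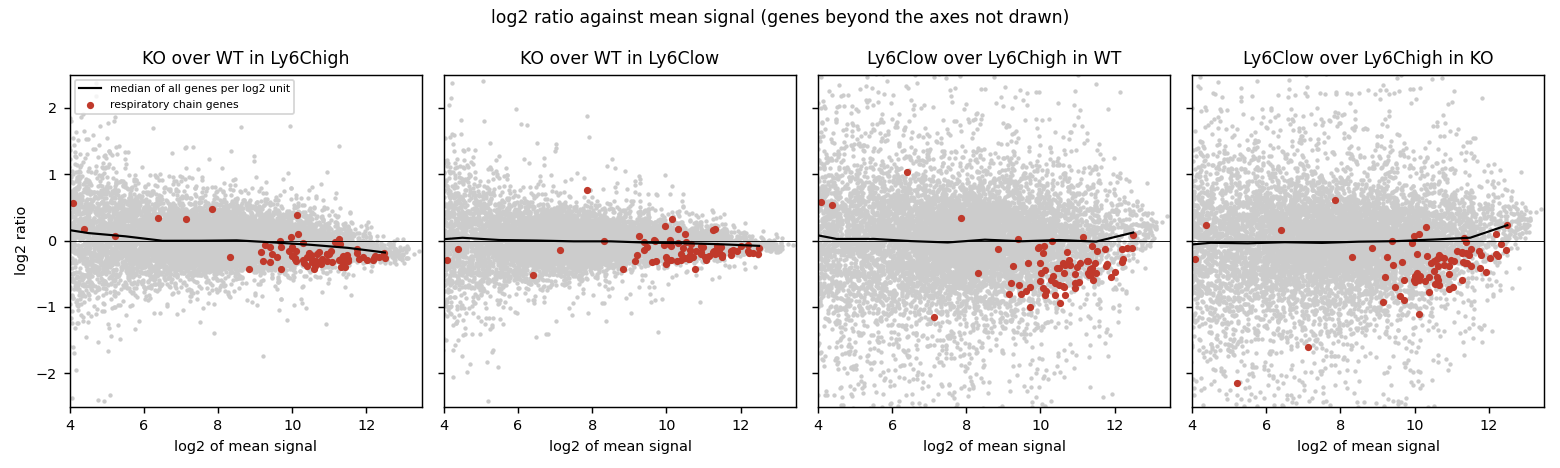
Log2 ratio (vertical axis) against log2 of the mean signal (horizontal axis) in the 4 comparisons, with all measured genes in grey, their median as a black line and respiratory chain genes in red. The black line slopes down at high signal in KO over WT in Ly6Chigh, and in the subset panels most red points lie below it.

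By complex, the KO over WT medians in Ly6Chigh ran from -0.27 (complex IV) to -0.16 (complex II), and in Ly6Clow from -0.20 (complex I) to 0.00 (complex II). Among genes Present on all arrays, the lowest ratio was that of Ndufa5 in Ly6Chigh and of Ndufa2 in Ly6Clow, both accessory subunits of complex I. Ndufa5 gave 549.6, 407.9, 503.2 and 375.4, log2 -0.43 and -0.42. A second Ndufa5 probe set, Present on all arrays, gave 288.1, 240.6, 171.0 and 167.8, log2 -0.26 and -0.03, and there the split ran between subsets (-0.75 in WT and -0.52 in KO). Ndufa2 gave 2197.3, 1717.2, 1789.5 and 1332.6, log2 -0.36 and -0.43. Both KO arrays were below both WT arrays for Ndufa5 in the brighter probe set and not in the dimmer. Of the genes Present on all arrays, 4 were above 1 in both subsets: Cox7c, Atp5b, Uqcrc1 and Uqcrq. Atp5b, the catalytic beta subunit, gave 2653.1, 2693.6, 2133.7 and 2378.7, so its KO excess was 0.02 in Ly6Chigh and 0.16 in Ly6Clow. WT Ly6Chigh was the highest array for 63 of the 73 genes, against 30.2% of all genes Present on all arrays, and KO Ly6Clow was the lowest for 61, against 27.7%.

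The authors' deposited table gives a change call for each pair of arrays. In the authors' deposited table, 40 of 77 genes were lower and 1 higher in KO over WT in Ly6Chigh, against 7.83% of all measured genes lower and 7.59% higher. For Ly6Clow the authors' deposited table has 20 of 76 lower and 1 higher, against 3.84% and 2.36%. It calls 13 lower in both subsets, against 1.37% of all genes: Atp5e, Atp5g1, Cox6b1, Cox6c, Cox7a2, Ndufa12, Ndufa4, Ndufa5, Ndufb3, Ndufb8, Ndufv2, Uqcr11 and Uqcrb in the authors' deposited table. Cox7c is the 1 gene called higher in both in the authors' deposited table, against 1.07%. For Ly6Clow over Ly6Chigh the authors' deposited table calls 60 of 77 lower in WT and 50 in KO, against 21.7% and 21.8% of all genes. These calls compare single arrays and carry no biological replicate.

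A model over all 4 arrays, with subset and genotype as additive terms, was fitted with limma to 11099 genes. It leaves 1 residual degree of freedom, and it takes its error only from the departure of these 4 pools from additivity, which is no biological replicate. For subset, 0 of 77 respiratory chain genes had an adjusted p under 0.05, against 4.14% of all genes lower and 2.94% higher. At an unadjusted p under 0.05, 35 were lower and 1 higher, against 18.7% and 16.3%. The lowest limma adjusted p was 0.0548 for Sdhd (log2 -0.95, SE 0.120), and among genes Present on all arrays the next were 0.0556 for Ndufb1 (-1.38, SE 0.178) and 0.0607 for Atp5g1 (-0.87, SE 0.122), all lower in Ly6Clow on both pairs of arrays. The dim gene Cox6b2, Present on the Ly6Chigh arrays, had a limma adjusted p of 0.0558. With an offset of 32 added to the signals 47 of 77 passed, against 38.9% of all genes, and with a variance trend 58, against 41.4%. For genotype, limma called 0 of 77 and 0.0% of all genes. At an unadjusted p under 0.05 it had 2 lower, Ndufa5 (-0.43, SE 0.116) and Ndufa2 (-0.39, SE 0.118), and 1 higher, Cox7c (0.61, SE 0.142), against 2.53% and 3.78% of all genes. The genotype count was 1 with the offset, against 0.955% of all genes, and 9 with the trend, against 2.59%.

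Gene lists from the same pathway were set beside the chain. Of 76 mitochondrial ribosomal protein genes, which translate the subunits encoded by mitochondrial DNA, 19 passed as lower in Ly6Clow in WT and 12 in KO, against 10.7% and 10.5% of all genes, with medians of -0.38 and -0.30. Their KO over WT medians were -0.19 in Ly6Chigh and -0.06 in Ly6Clow, with 0 lower past 1.5-fold. The 42 measured assembly factors, which build the complexes, had subset medians of -0.18 and -0.19, and 17 genes of pyruvate entry and the citrate cycle -0.19 and -0.16. KO over WT medians in Ly6Chigh and Ly6Clow were -0.17 and -0.05 for assembly factors and -0.13 and -0.16 for the citrate cycle list. Those of the respiratory chain were -0.24 and -0.16. Cytochrome c and carriers had subset medians of -0.37 and -0.31 and KO over WT medians of -0.069 and -0.115. Regulators of biogenesis had subset medians of 0.20 in WT and 0.19 in KO, with 12 of 14 and 9 of 13 above 0. Of these, 1 in each genotype passed 1.5-fold as higher, near the 8.93% and 8.29% of all genes. Nrf1, whose motif is shown above, gave 135.0, 133.7, 249.8 and 245.8 and was singled out after its values were seen.

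**Figure D5:**
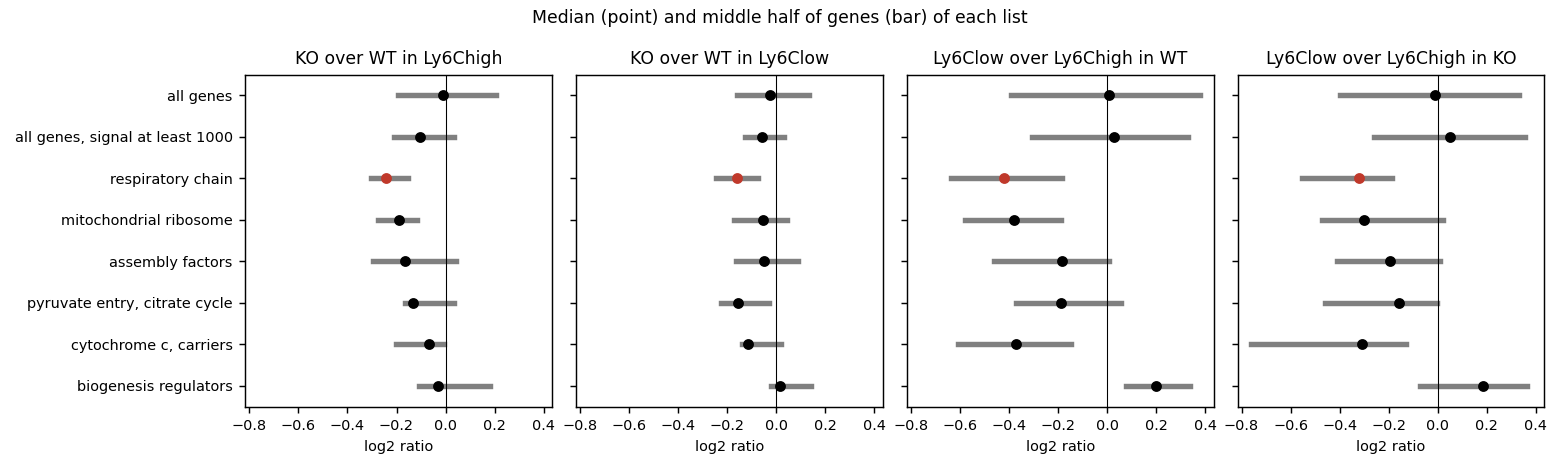
Median log2 ratio (point) and the span from the 25th to the 75th percentile (bar) of each gene list in the 4 comparisons, with the respiratory chain in red. The medians of the respiratory chain, mitochondrial ribosome, assembly factors, citrate cycle list and carriers lie left of 0 in all 4 panels. Those of biogenesis regulators lie right of 0 in both subset panels. Bars of the ribosome list cross 0 in KO over WT in Ly6Clow and in the KO subset panel. Assembly factor bars cross 0 in all 4 panels and regulator bars in all but the WT subset panel. Citrate cycle bars cross 0 in KO over WT in Ly6Chigh and in the WT subset panel, and carrier bars in KO over WT in Ly6Clow.

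Of the listed genes around the chain, those past 2-fold the same way in both genotypes are given here with Cyc1 and Cycs. Slc25a4, which exchanges ADP for ATP across the inner membrane, gave 1492.1, 1263.8, 201.6 and 106.0, log2 -2.89 in WT and -3.58 in KO. Mpc1, a subunit of the mitochondrial pyruvate carrier, gave 1404.6, 1322.7, 334.3 and 351.5, log2 -2.07 and -1.91. Atpif1, the inhibitor protein of ATP synthase, gave 1039.9, 1035.8, 392.3 and 357.3, log2 -1.41 and -1.54. For these 3 both Ly6Clow arrays were far below both Ly6Chigh arrays. Slc25a4 also passed 1.5-fold as lower in KO over WT in Ly6Clow (log2 -0.93), where 0.589% of all genes did. Mrpl58, a mitochondrial ribosomal protein that also releases stalled peptides, gave 906.4, 735.1, 389.3 and 340.8. Cyc1, the cytochrome c1 subunit of complex III that the symbol rule leaves out, gave 1281.2, 1281.0, 1157.9 and 1172.3. Cycs, the cytochrome c that carries electrons to complex IV, gave 4454.6, 4338.8, 3320.0 and 3065.6. Cyc1 was nearly level across the arrays, and Cycs was lower in Ly6Clow by less than 1.5-fold.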

How the data were processed

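The authors deposited signal intensities on a linear scale. Leaving out 2% of the values at each end, they averaged 150.001 on every array. The design text names Expression Console 1.2.1, and the submitters' processing notes name GCOS. How the signals were summarised from probes is not given in the sources. The deposited table adds detection p-values and calls, and the authors' signed fold and change call for each pair of arrays, without a description of how they were made. A second deposited value table was identical to the signals (0 values differed).

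Of 45101 probe sets, 34958 had 1 gene symbol, 932 several and 9211 none. Symbols were updated through a RefSeq table (GRCm38.p6), and probe sets with several symbols were not used, 10 of which match the symbol rule. Each gene was represented by its brightest probe set. Ratios had no offset. limma 3.58.1 (R 4.3.3) was fitted with subset and genotype to log2 signals of 11099 genes Present on at least 1 array, with Benjamini-Hochberg adjustment over all of them. The fit was also run on simulated data. Their noise was set from the departure of these 4 arrays from additivity, so that run cannot show the error between biological pools. Scripts ran in Python 3.11.15.

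Every respiratory chain gene could be named. Signals in full were given for genes past 1.5-fold and isoform families, and outside the set for Cyc1, Cycs and up to 4 genes per list past 2-fold in both comparisons. Others shown in full (Sdha, Ndufs1, Uqcrc1, Atp5b, Ndufa5, Ndufa2 and Nrf1) were picked after their values were seen. The genes, lists and tests were chosen with earlier results of these data known. Alternatives were median centring, quantile normalization, an offset of 32, the mean of all probe sets, genes Present on all arrays, the platform's own symbols, no signal minimum, a variance trend and, added after seeing the data, cyclic loess. Each group had 1 array and so no replicate, which limits the precision.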

Additional observations from a re-analysis of the deposited data

Results flagged for a closer look

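Atp5md, a small membrane subunit of ATP synthase, was higher in KO than in WT in Ly6Chigh (log2 0.38) and lower in Ly6Clow (-0.29). The KO ratio in Ly6Clow minus that in Ly6Chigh was -0.67, and it drew attention because the 2 subsets lay on opposite sides of 0 by more than 1.2-fold each. The difference was not tested, since each group has 1 array. Atp5md was represented by its only probe set, and the authors' deposited table called no change for it in either subset.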

How the results depend on the processing

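The median log2 ratios kept their sign under every alternative run. They ranged from -0.25 to -0.16 for KO over WT in Ly6Chigh, from -0.16 to -0.12 in Ly6Clow, from -0.44 to -0.36 for Ly6Clow over Ly6Chigh in WT and from -0.36 to -0.27 in KO. With median centring, 12 respiratory chain genes passed 1.5-fold in the KO subset comparison instead of 19, and 9 instead of 15 were lower in both genotypes, all 9 among the 15. Ndufa8, Ndufb3, Ndufb8, Ndufb10, Ndufc2 and Uqcr11 were lost, which took complex I from 11 to 6 and Ndufb from 7 to 4. Quantile normalization left 13 lower in both, 12 of them shared, and the offset of 32 left 11. Of all genes, 8.52% were lower in both by default, 7.65% with median centring, 7.99% with quantile normalization and 7.48% with the offset. In the limma fit for subset, 0 respiratory chain genes were called by default, 47 with the offset of 32 and 58 with a variance trend. For genotype these counts were 0, 1 and 9. Over all genes, the subset counts were 786, 4317 and 4590, with 0 when probe sets were averaged per gene. The genotype counts were 0, 106 and 287. With the trend the prior degrees of freedom were infinite, so a gene's own residual had no weight. Respiratory chain genes with an unadjusted p under 0.05 numbered 36 for subset, 55 with the offset and 61 with the trend, and 3, 17 and 44 for genotype. Over all 11099 genes these counts rose too, from 3883 to 5176 and 5261 for subset and from 700 to 1248 and 1479 for genotype. The other totals of respiratory chain genes past 1.5-fold, both directions together, stayed within 1.5 times. The count of 1 higher gene became 2 in WT with no signal minimum and 0 with genes Present on all arrays, and in KO 0 with the offset and 2 with averaged probe sets. No paired analysis was possible because each group has 1 array and the labels give no replicate numbers, other than the additive fit, which compares the subsets within each genotype and the genotypes within each subset. For the same reason no replicate could be left out.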

Other observations

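A second look at genes with more than 1 probe set used 70 other probe sets, Present on all 4 arrays, of 44 respiratory chain genes. Of these, 62 were below 1 in KO over WT in Ly6Chigh and 57 in Ly6Clow, with median log2 ratios of -0.24 and -0.13. In Ly6Clow over Ly6Chigh, 61 were below 1 in WT and 56 in KO, with medians of -0.42 and -0.29. Probe sets of 1 gene share the same RNA and are not replicates.

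Across the 77 genes, the subset ratios in WT and in KO, which come from separate arrays, had a Pearson r of 0.848 and a Spearman rho of 0.870, against 0.837 and 0.767 over all genes. Across 76 genes, the KO over WT ratios in the 2 subsets had 0.297 and 0.246, against 0.146 and 0.208 over all genes. Over the 73 genes Present on all arrays they had 0.530 and 0.335, with no all-gene value of that kind beside them. Among genes with a mean signal of at least 1000, the chain had the lower values. The subset ratios had 0.784 and 0.834 for 58 respiratory chain genes, against 0.961 and 0.922 for all 1570. The KO over WT ratios had 0.322 and 0.201, against 0.398 and 0.389. These are descriptions across genes, which are not independent replicates and share probes and signal level.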
